A study of Mus musculus with 3 samples.

Results

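The messenger RNAs of 6 S100 proteins (S100a4, S100a6, S100a8, S100a9, S100a10 and S100a11) and 4 galectins (Lgals1, Lgals3, Lgals8 and Lgals9) were followed in the cytosol of lipid A-treated mouse macrophages. They were taken by gene symbol, with earlier results of these data known, and make up 10 of the 55536 genes in the deposited gene tables. The cells were bone marrow-derived macrophages, phagocytes grown in culture from the marrow of C57BL/6J mice, and every library received the same treatment. Lipid A, the part of bacterial lipopolysaccharide that the receptor Tlr4 senses, was given at 100 ng/ml for 12 h and removed for 12 h. The cells were then taken at 0 min of a second stimulation with 100 ng/ml lipid A. RNA of the cytosolic fraction was depleted of ribosomal RNA and sequenced as total RNA. The 3 libraries, replicates 1, 2 and 3, share a donor identifier in the labels, and sex and age were not collected. Untreated and restimulated cells were not analysed here, so the values describe a state and no response to lipid A.

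S100 proteins are small calcium-binding proteins with EF-hand motifs. Inside cells most work as dimers that bind annexins, myosin or scaffold proteins, and some are released as alarm signals that receptors such as Tlr4 and Ager recognise. Galectins are lectins for β-galactoside sugars, made on free ribosomes and exported without a signal peptide. They crosslink glycoproteins at the cell surface and, in the cytosol, bind the sugars of the vacuole lumen that become exposed when an endosome or lysosome breaks.

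Galectin messengers were far more abundant than those of the S100 proteins. The 4 galectins summed to 1247, 1381 and 1175 TPM in replicates 1, 2 and 3 (1268 ± 105, SD, n = 3), and the 6 S100 genes to 160.3, 197 and 141 TPM (166 ± 28.7, SD, n = 3). TPM is transcript abundance per length, scaled to the same total over all rows of each table, so levels of different genes share a scale. The galectin sum was 7.78, 7.004 and 8.36 times the S100 sum. All 6 S100 genes had a mean effective length under 500 bases, and the 4 galectins a longer one. Effective length follows the fragment lengths of a library, and the labels give a size range of 250 to 400 without a unit. The part of length in these ratios was not tested. Lgals3 alone carried 56.3% of the galectin sum on average, Lgals1 21.6%, Lgals9 18.4% and Lgals8 3.68%. Within the S100 sum S100a11 held 35.7%, S100a10 33.2%, S100a6 18.2%, S100a4 8.46%, S100a9 2.73% and S100a8 1.78%. All 10 members reached 1 TPM in every library, as did 41.2% of the 22028 protein-coding genes. At 10 TPM 8 members remained, against 17.1% of protein-coding genes, and at 100 TPM 3, all galectins, against 1.73%. The members' median level was 254 TPM for the galectins and 22.1 TPM for the S100 genes, and that of all protein-coding genes 0.16 TPM. The members were chosen with earlier results of these data known. Of other genes, 3 of 11 with S100 names and 1 of 7 found from the other galectin list reached 1 TPM in every library. The shares and medians above therefore describe the chosen genes and not the families.

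**Figure D1:**
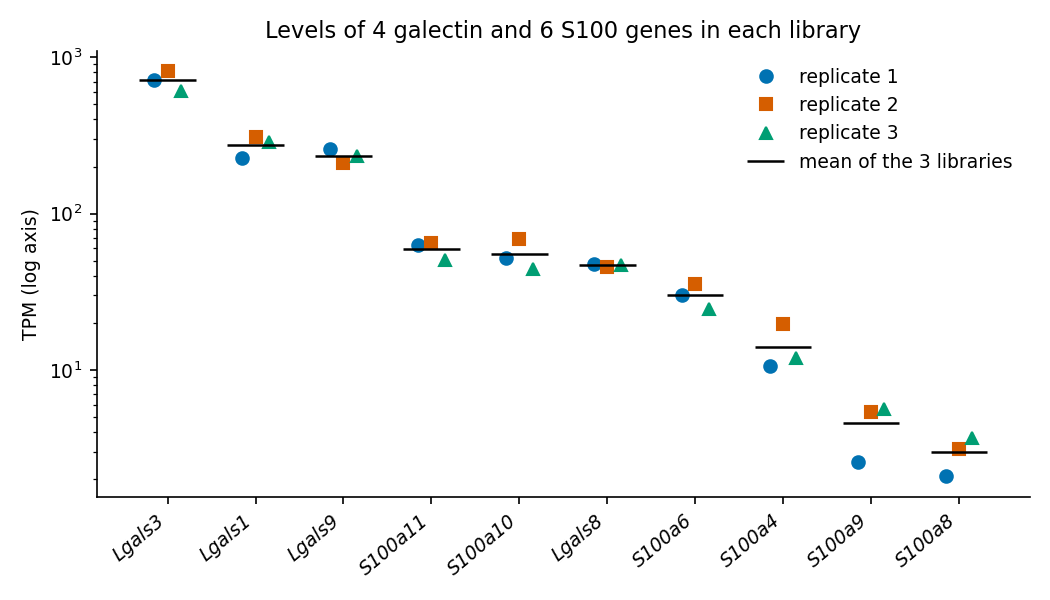
Level of each member in TPM on a log axis, from the highest to the lowest mean, with a symbol for each of the 3 libraries and a bar at their mean. Lgals3, Lgals1 and Lgals9 lie above 100 TPM in every library, and S100a9 and S100a8 lie below 6 TPM.

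Gene rows held 28981178, 53119941 and 46783133 expected counts in replicates 1, 2 and 3, and the members took 0.206, 0.258 and 0.179% of them. The 7SL RNAs took 56.9, 65.3 and 52.5% of all TPM, so deposited TPM of any other gene depends on that share, and levels were also computed with protein-coding genes scaled to the same total in each library. Macrophage markers were abundant: all 14 listed were at 10 TPM or more in each library, with Lyz2 at 3326 ± 193, Ctsd at 2895 ± 278 and Ctsb at 2218 ± 210 TPM (SD, n = 3). Replicate 3 stood apart in nuclear-retained RNAs, of which 6 of 8 were tested between libraries. All 6 differed, against 16.2% of all genes tested. The list summed to 176, 103 and 1467 TPM, with Malat1 at 158, 91.05 and 1343 and Neat1 at 16.8, 10.4 and 91.4 TPM. The labels do not say whether the libraries came from separate animals, so p-values here reflect only how these libraries vary, which may be a technical spread. In bulk RNA, fewer cells of a type and less RNA per cell cannot be told apart.

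Lgals3, the galectin long used as a macrophage marker and a label of broken lysosomes, was the most abundant member. It stood at 716, 817 and 609.6 TPM in replicates 1, 2 and 3, from 30393, 77009 and 40335 expected counts. These levels placed it 37th by mean among protein-coding genes, with ranks between 24 and 44 in single libraries. Replicate 2 was the highest and replicate 3 the lowest, with a mean of 714 ± 104 TPM (SD, n = 3). Scaled to protein-coding genes the order was the same, at 2311, 2999.8 and 1931 TPM.

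Lgals1, a galectin of a single sugar-binding domain that forms dimers, and Lgals9, which joins a pair of such domains by a linker, followed at similar levels. Lgals1 held 226, 309 and 286 TPM (274 ± 42.7, SD, n = 3) and Lgals9 held 258, 209.7 and 233 TPM (233 ± 24.005, SD, n = 3). Their ranges overlapped, and Lgals1 was the higher of the pair in 2 of 3 libraries, at 0.878, 1.47 and 1.23 times Lgals9. Lgals3 was above Lgals1 in every library, by 3.16, 2.64 and 2.13 times, and its range did not overlap with that of Lgals1. Among protein-coding genes Lgals1 ranked 112th and Lgals9 144th by mean level.

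Lgals8, also a galectin with a pair of sugar-binding domains and in human cells a sensor of broken bacterial vacuoles, was the lowest galectin. It held 47.4, 45.6 and 47.2 TPM in replicates 1, 2 and 3 (46.7 ± 0.968, SD, n = 3). The 3 libraries nearly coincided: the coefficient of variation was 2.07%, and 1.43% of the 9074 protein-coding genes at 1 TPM or more in every library had a lower one, with a median of 13.8%. That closeness belongs to deposited TPM, since scaled to protein-coding genes Lgals8 held 153, 167 and 149 TPM. Lgals8 stood at 0.184, 0.217 and 0.202 times the level of Lgals9, the other galectin of the same build. Its gene overlaps Heatr1 on the opposite strand, at 4.43, 4.78 and 5.96 TPM. No source used here says if reads were counted by strand. The Lgals8 expected counts of 4829.95, 9432.85 and 6768.92 were not whole, nor were those of Heatr1, at 1143.05, 2414.15 and 2162.08. Added together the counts of both genes are whole in each library, which shows that some reads were shared out between them, although they lie on opposite strands.

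S100a11 and S100a10 were the most abundant S100 messengers. S100a11, an annexin A1 partner, held 63.0, 64.5 and 50.4 TPM (59.3 ± 7.74, SD, n = 3). S100a10, which joins annexin A2 in a complex at membranes, held 51.8, 69.0 and 44.5 TPM (55.1 ± 12.6, SD, n = 3). Their ranges overlapped, and S100a11 was above S100a10 in replicates 1 and 3 and below it in replicate 2. Anxa2, the partner of S100a10, was at 1.93, 1.52 and 2.45 times the level of S100a10, so the partner's messenger was the more abundant in each library. S100a10 and Lgals8 also overlapped, whereas Lgals9 lay above S100a11 in every library by 4.09, 3.25 and 4.62 times.

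S100a6, which binds the Cacybp protein, and S100a4, which binds the heavy chain of non-muscle myosin, came next. S100a6 held 30.3, 35.6 and 24.5 TPM (30.1 ± 5.55, SD, n = 3), below Lgals8 in every library. S100a4 held 10.6, 19.6 and 11.95 TPM (14.04 ± 4.85, SD, n = 3), with replicate 2 standing above the other libraries. The deposited intervals of S100a4, whose level the file header does not state, ran over 8.83 to 12.6, 17.8 to 21.2 and 10.5 to 13.6 TPM, so the replicate 2 interval lay apart from both others. S100a6 was above S100a4 by 2.86, 1.82 and 2.05 times.

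S100a9 and S100a8 encode the subunits of calprotectin, a metal-binding complex that fills the cytosol of neutrophils and is plentiful in monocytes. They were the lowest members. S100a9 held 2.58, 5.41 and 5.63 TPM in replicates 1, 2 and 3 (4.54 ± 1.70, SD, n = 3), from 33, 152 and 115 counts. S100a8 held 2.08, 3.13 and 3.68 TPM (2.96 ± 0.813, SD, n = 3), from 24, 80 and 68 counts. Replicate 1 was the lowest for both subunits, and the ranges of the pair overlapped. Within each library S100a9 was the higher, by 1.24, 1.73 and 1.53 times (1.4996 ± 0.245, SD, n = 3). Lgals3 was 344, 261 and 166 times as abundant as S100a8.

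Cells that are rich in calprotectin were sought by their own markers. Of 13 neutrophil markers 3 reached 1 TPM in every library, Csf3r at 35.6 ± 10.2, Lcn2 at 21.1 ± 11.7 and Mmp8 at 1.92 ± 0.304 TPM (SD, n = 3). Of the others Ly6g and Retnlg had 0 counts in every library, and the rest were low: Ngp averaged 0.507, Prtn3 0.213, Ltf 0.173, Camp 0.167, Mmp9 0.123, Mpo 0.043, Elane 0.010 and Cxcr2 0.010 TPM. The whole list summed to 78.3, 36.4 and 64.8 TPM in replicates 1, 2 and 3, of which Csf3r and Lcn2 made up 75.8, 33.4 and 60.9 TPM. The other 11 genes summed to 2.49, 3.04 and 3.98 TPM. By TPM replicate 1 was the lowest library for S100a8 and S100a9 and for 5 of the neutrophil markers, Ngp, Ltf, Prtn3, Mmp8 and Mmp9, while replicate 2 was the lowest for 4, Csf3r, Lcn2, Camp and Mpo. Of 11540 protein-coding genes with a mean of 10 or more counts, 4134 were lowest by TPM in replicate 1 and 6265 in replicate 2. On counts scaled for library size 7 markers were lowest in replicate 1 and 3 in replicate 2, against 3663 and 2894 of those 11540 genes. The 7 include Camp, from 4, 8 and 7 counts, and Cxcr2, from 1, 2 and 2, both under the 10 counts asked of those genes. Of 8 monocyte markers 5 were at 1 TPM or more in each library, among them Plac8 at 29.6 ± 15.1 and Ly6c2 at 9.47 ± 1.25 TPM (SD, n = 3). The monocyte list summed to 85.0, 40.8 and 45.9 TPM, of which Plac8 held 47.0, 20.0 and 21.9. The sum was highest in replicate 1, but not every gene was. Ly6c2 held 10.22, 10.17 and 8.03 TPM, and F13a1 was lowest in replicate 1, at 0.43, 0.57 and 0.55 TPM. Stromal markers summed to between 0.36 and 0.39 TPM, with none of 10 at 1 TPM and Pdgfra at 0 counts, and dendritic cell markers to between 2.28 and 4.34 TPM, of which Batf3 alone reached 1 TPM, at 2.16 ± 0.894 (SD, n = 3). Between libraries 3 of 7 neutrophil markers tested differed by the rule used for the members, given below, and 2 of 8 monocyte markers. The 3 did not move together: Lcn2 was highest in replicate 1, and Ltf and Mmp9 were lowest there and highest in replicate 3. Ltf rests on 2, 8 and 24 counts. By that rule 16.2% of all genes tested and 8.12% of protein-coding genes differed. The part of any of these cells in the S100 levels was not tested.

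The sequence upstream of the RefSeq start of 4 members is given because they mark both ends of the order and the galectin with the rarest motif match among the member promoters. They come from RefSeq (GRCm38.p6), whose promoter table held 8 of the 10 members, all but S100a10 and Lgals1. The windows are chr14:47373610-47373812 on the plus strand for Lgals3, chr11:78984947-78985174 on the minus strand for Lgals9, chr3:90668821-90668977 on the plus strand for S100a8 and chr3:90695722-90695971 on the minus strand for S100a9. Each stops before the RefSeq start and overlaps no exon of its gene in GENCODE M21, and capitals mark the motif matches described after them. The M21 transcript with the most TPM of each gene, its leading transcript, starts elsewhere. From the RefSeq start it begins at 104 bases in Lgals3, -22 in Lgals9, -93 in S100a8 and 10 in S100a9, negative values lying upstream. The Lgals3 window lies within an intron of Lgals3-205, a transcript with an earlier start that held 0.018, 0 and 0.016% of Lgals3 TPM.
Lgals3: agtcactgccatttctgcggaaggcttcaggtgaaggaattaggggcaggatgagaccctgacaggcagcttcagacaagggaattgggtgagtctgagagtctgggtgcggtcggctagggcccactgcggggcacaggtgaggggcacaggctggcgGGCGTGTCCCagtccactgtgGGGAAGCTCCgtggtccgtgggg
Lgals9: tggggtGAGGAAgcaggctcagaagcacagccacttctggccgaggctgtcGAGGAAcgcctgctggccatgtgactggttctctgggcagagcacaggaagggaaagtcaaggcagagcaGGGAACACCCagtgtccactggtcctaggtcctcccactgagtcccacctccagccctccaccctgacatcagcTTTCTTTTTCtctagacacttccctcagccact
S100a8: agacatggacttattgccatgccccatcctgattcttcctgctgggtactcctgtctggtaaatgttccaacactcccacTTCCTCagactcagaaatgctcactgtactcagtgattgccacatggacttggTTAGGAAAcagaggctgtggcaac
S100a9: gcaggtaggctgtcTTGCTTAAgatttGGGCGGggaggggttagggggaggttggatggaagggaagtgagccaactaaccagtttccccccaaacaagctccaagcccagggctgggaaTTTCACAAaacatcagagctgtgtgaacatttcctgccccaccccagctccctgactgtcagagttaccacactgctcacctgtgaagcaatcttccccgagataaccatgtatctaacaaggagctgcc

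Motifs were searched by their letters on both strands over 300 bases around the RefSeq start, in the 8 member promoters and in all 32851 promoters of the table. In Lgals9 the run TTTCTTTTTC in capitals, beginning at position -55, reads on the other strand as GAAA and GAAA with NN between them, the letters of the interferon-stimulated response element. Those letters were in 1 of the 8 member promoters and in 3.44% of all promoters, and Lgals9 held another such match after its start. GGGA and CC with NNNN between them, the letters of an NF-kB site, were in S100a4, S100a11, Lgals3 and Lgals9, and in 20.7% of all promoters. Lgals3 carried that motif at positions -91 and -70, on opposite strands. TTNCNNAA, the letters used for C/EBP, were in S100a8, S100a9 and Lgals8, and in 40.7% of all promoters: S100a9 had them at positions -236 and -130 and S100a8 at -117. GAGGAA, the letters of PU.1, were in S100a4, S100a8, S100a11 and Lgals9, and in 28.3% of all promoters. GGGCGG, the GC box, was in S100a9, S100a11 and Lgals3, and in 35.7%. TATAAA was in S100a4, S100a8 and S100a9 but only at position -31 in S100a4 and -30 in S100a8 did it lie upstream of the RefSeq start, where S100a8 has it beyond the window shown, and 13.6% of all promoters held it. In S100a8 that match lies after the start of the leading transcript, S100a8-201. TGANTCA, the letters of AP-1, was in S100a11 and in 7.81% of all promoters, and TTCNNNGAA, the letters of a STAT site, in no member promoter and in 8.30% of all. S100a6 had no match to any of these letters. A match describes letters and shows no bound factor.

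The 6 S100 members lie in both of the groups that S100 genes form on chromosome 3. The first group holds 12 S100 genes within 185 kb (positions 90511034 to 90695721, GRCm38), S100a4, S100a6, S100a8 and S100a9 among them. The second holds S100a11 and S100a10 within 44.2 kb (93520488 to 93564643), 2.82 Mb further on. Levels differed sharply between close neighbours: S100a4 and S100a6 are 6.84 kb apart, and S100a5, which lies between them, had 0 counts in every library. The most abundant pair, S100a11 and S100a10, are neighbours 28.8 kb apart, and the least abundant pair, S100a8 and S100a9, lie 22.6 kb apart at the end of the first group. At the other end of that group S100a1, a regulator of calcium handling in muscle, held 34.7, 38.8 and 34.1 TPM and S100a13 held 12.1, 12.4 and 13.1 TPM, both between S100a10 and S100a9 in level. S100a14, S100a16, S100a3 and S100a2 had 0 counts, and S100a7a averaged 0.027 TPM. A count of 0 allows up to 0.104, 0.0565 and 0.0641 CPM in replicates 1, 2 and 3, where CPM is counts relative to the library total, and this limit covers counting error only.

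**Figure D2:**
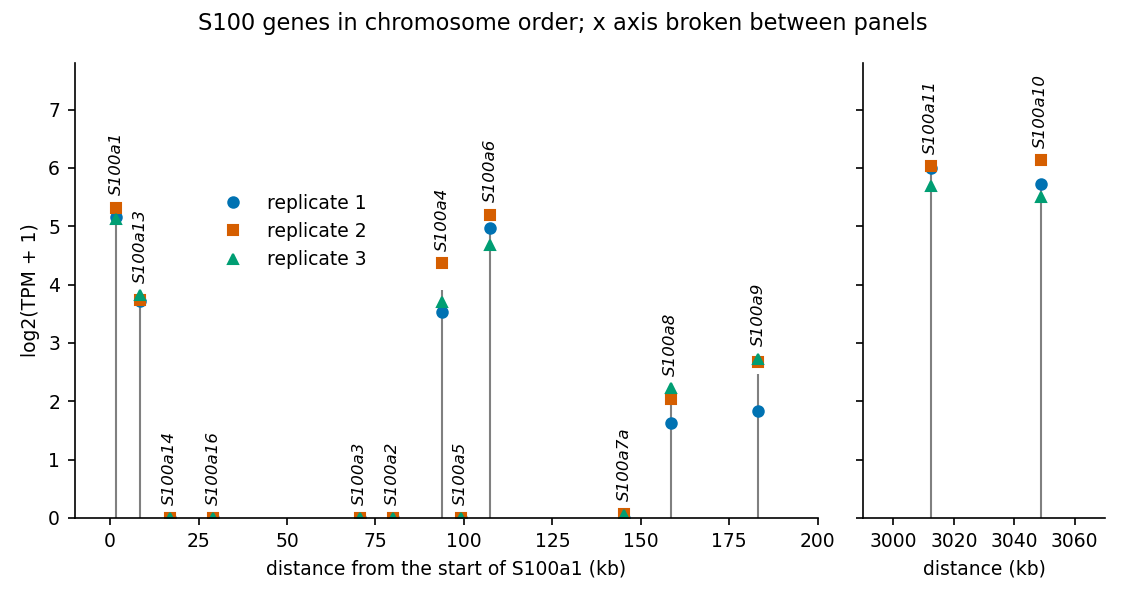
S100 genes along chromosome 3 by distance in kb from the start of S100a1 to the middle of each gene, with log2(TPM + 1) in each of the 3 libraries and a line up to the mean. S100a4 and S100a6 stand on both sides of S100a5, which is at 0, and S100a11 and S100a10 form the separate pair on the right.

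The galectin members lie apart from each other. Lgals9 is at chr11:78962974-78984946 on the minus strand, Lgals8 at chr13:12439415-12464944 on the minus strand, Lgals3 at chr14:47367751-47386160 on the plus strand and Lgals1 at chr15:78926725-78930465 on the plus strand. The leading transcripts of the S100 genes each have 3 exons and code for 89 (S100a6 and S100a8) to 113 (S100a9) amino acids. Those of the galectins code for 135 (Lgals1), 264 (Lgals3), 316 (Lgals8) and 322 (Lgals9) amino acids in 4, 6, 10 and 10 exons. The annotated pseudogenes S100a11-ps, Lgals1-ps1 and Lgals1-ps2 had 0 counts in every library, and S100a4 overlaps Gm42674 on the same strand, also at 0.

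Most members differed by less than 2 times between the libraries. Rounded expected counts were compared with library sizes scaled by TMM, a method that sets a common level over genes, by a chi-square test with Benjamini-Hochberg adjustment over 13636 genes, and a gene was called when the adjusted p was under 0.05 and the highest library at least 2 times the lowest. By that rule 2 of 10 members were called, S100a4 and S100a9, where 16.2% of all genes and 8.12% of protein-coding genes were. Both were highest in replicate 2, as were the called genes that make up 2.6% of all genes tested, while 2.22% were called with replicate 1 highest and 11.3% with replicate 3 highest. The test compares these libraries, not conditions, and covers counting error only: 9 members, and 75.6% of all genes, passed it at any ratio.

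S100a4 had 4.58, 9.91 and 4.73 scaled CPM in replicates 1, 2 and 3. The ratio of replicate 2 to replicate 1, with 0.5 counts added to each for these ratios, was 2.16 (chi-square test, adjusted p = 2.85e-27). S100a9 had 1.18, 2.88 and 2.35 scaled CPM, a ratio of replicate 2 to replicate 1 of 2.41 (chi-square test, adjusted p = 2.27e-05). S100a8 had 0.86, 1.52 and 1.39 scaled CPM, a ratio of 1.74 that did not pass (chi-square test, adjusted p = 0.0597) with far fewer counts behind it than any other member but S100a9. S100a10, at 39.1, 58.4 and 29.6 scaled CPM, just missed the fold threshold with a ratio of 1.97. The ratios of the other members ran from 1.29 for Lgals8 and 1.296 for Lgals9 to 1.77 for Lgals3. With replicate 2 left out 0 members were called, against 13.9% of genes. With replicate 1 left out S100a4 alone was called, against 14.4% of genes, and with replicate 3 left out S100a4 and S100a9 were, against 4.81%.

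The members leaned towards replicate 2. On scaled counts 9 of 10, including 6 of 6 S100 genes, were highest there, and Lgals9 was highest in replicate 1 (566, 498 and 437 scaled CPM). Of protein-coding genes tested, 39.2% were highest in replicate 2. By deposited TPM 6 members were highest in replicate 2, against 12.0% of protein-coding genes, and S100a8 and S100a9 were then highest in replicate 3. Library and length moved together over all genes: of 378 tested protein-coding genes with a mean effective length under 500 bases, the class of all 6 S100 genes, 68.3% were highest in replicate 2, and 24.9% of the 2269 genes of 4000 bases or more were. Lgals1 and Lgals3 fell in the class from 500 to 1000 bases, where 55.1% were highest in replicate 2, Lgals9 in that from 1000 to 2000 bases, with 47.7%, and Lgals8 in that from 2000 to 4000 bases, with 33.6%. The median ratio between libraries was 1.73 for the members, 1.41 for that short class and 1.27 for protein-coding genes tested. The effective length of S100a4, which follows the fragment lengths of a library, was 251, 277 and 272 bases in replicates 1, 2 and 3. The part of length in the members' lean was not tested.

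**Figure D3:**
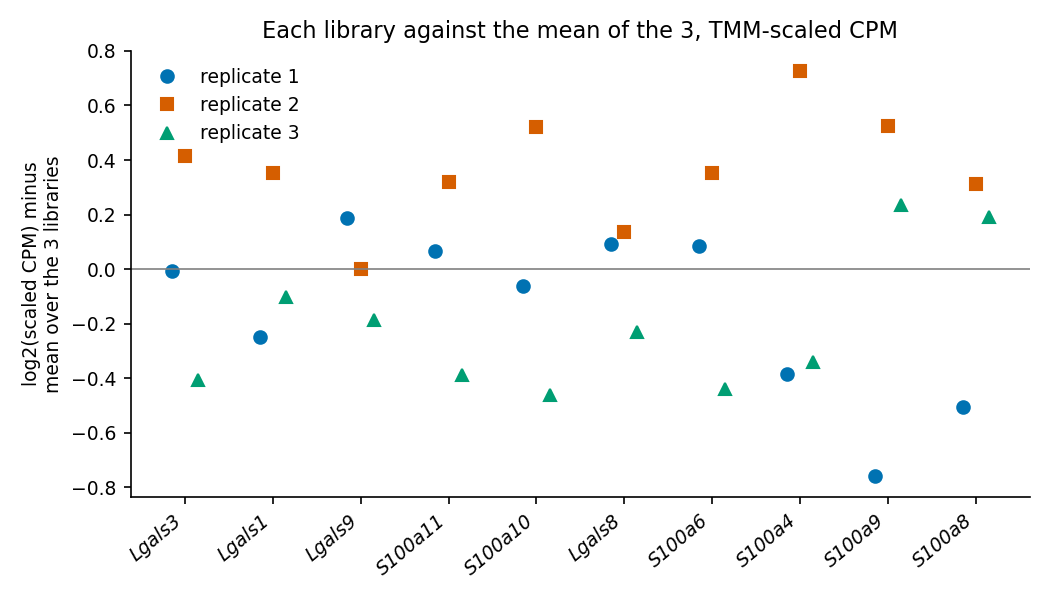
Difference of each library from the mean of the 3 libraries in log2 scaled CPM, for each member in order of mean level. Replicate 2 is the highest symbol for every member except Lgals9, and S100a4 and S100a9 show the widest spread.

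The order of the members by level had 9 neighbouring pairs, and in 5 of them the ranges of the 3 libraries did not overlap. These were Lgals3 over Lgals1, Lgals9 over S100a11, Lgals8 over S100a6, S100a6 over S100a4 and S100a4 over S100a9. The other 4 pairs overlapped: Lgals1 and Lgals9, S100a11 and S100a10, S100a10 and Lgals8, and S100a9 and S100a8. With 3 libraries no test of these orders was made.

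The galectin genes differed in how far a single transcript carried them. The members have 36 annotated transcripts, and in 6 members the leading transcript held over 90% of the gene's TPM on average. Lgals9 was carried by Lgals9-202, with 97.4, 97.1 and 96.6% of its TPM (97.0 ± 0.407, SD, n = 3). Lgals9-203 held 2.56, 2.83 and 2.84%, and includes the additional exon 5 of 11, at chr11:78969714-78969806 on the minus strand, which lengthens the linker between the sugar-binding domains by 31 codons in frame. The junction is shown with that exon in capitals and as it reads in the leading transcript, from the GENCODE M21 transcript sequences, with 24 bases on each side.
Lgals9-203: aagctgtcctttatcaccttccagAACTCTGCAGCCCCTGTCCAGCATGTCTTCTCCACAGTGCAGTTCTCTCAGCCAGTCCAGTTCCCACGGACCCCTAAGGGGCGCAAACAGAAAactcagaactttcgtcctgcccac
Lgals9-202: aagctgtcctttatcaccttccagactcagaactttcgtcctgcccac

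Lgals8 was spread over more forms. Its 10 transcripts were led by Lgals8-201 with 34.9, 38.8 and 39.5% of its TPM (37.7 ± 2.53, SD, n = 3), followed by Lgals8-206 with 27.4, 22.7 and 14.4%. Lgals8-208 held 15.9, 15.7 and 15.2% (15.6 ± 0.329, SD, n = 3) and lengthens exon 5 by 27 bases, or 9 codons, at chr13:12453258-12453284 on the minus strand. Its share varied little between the libraries. In the transcript table made directly from the reads Lgals8-208 held 19.9, 19.7 and 18.7%, above Lgals8-206 with 13.7, 9.01 and 0.0135%, so the order of these forms depended on the table. The junction is shown in the same way, with the added bases in capitals.
Lgals8-208: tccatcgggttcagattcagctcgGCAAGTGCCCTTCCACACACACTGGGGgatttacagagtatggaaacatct
Lgals8-201: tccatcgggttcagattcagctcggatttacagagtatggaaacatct

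Lgals3 and S100a6 were split between transcripts with the same coding region. Lgals3-203 held 72.9, 40.2 and 60.2% of Lgals3 TPM and Lgals3-204 held 20.4, 48.8 and 30.0%. These forms differ in the first exon and the 3′ end, and their shares depended on the table: in the transcript table made directly from the reads Lgals3-203 held 84.5, 78.8 and 76.8%. S100a6-203 and S100a6-201 held 45.7, 59.9 and 50.9% and 53.9, 40.1 and 48.8% of S100a6, and with read-derived values the S100a6-201 form led on average, with 54.5 ± 9.37% against 44.7 ± 9.21% (SD, n = 3). S100a9-201 held 82.9, 90.8 and 75.8% of S100a9, the rest being S100a9-202, which differs before the start codon.

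**Figure D4:**
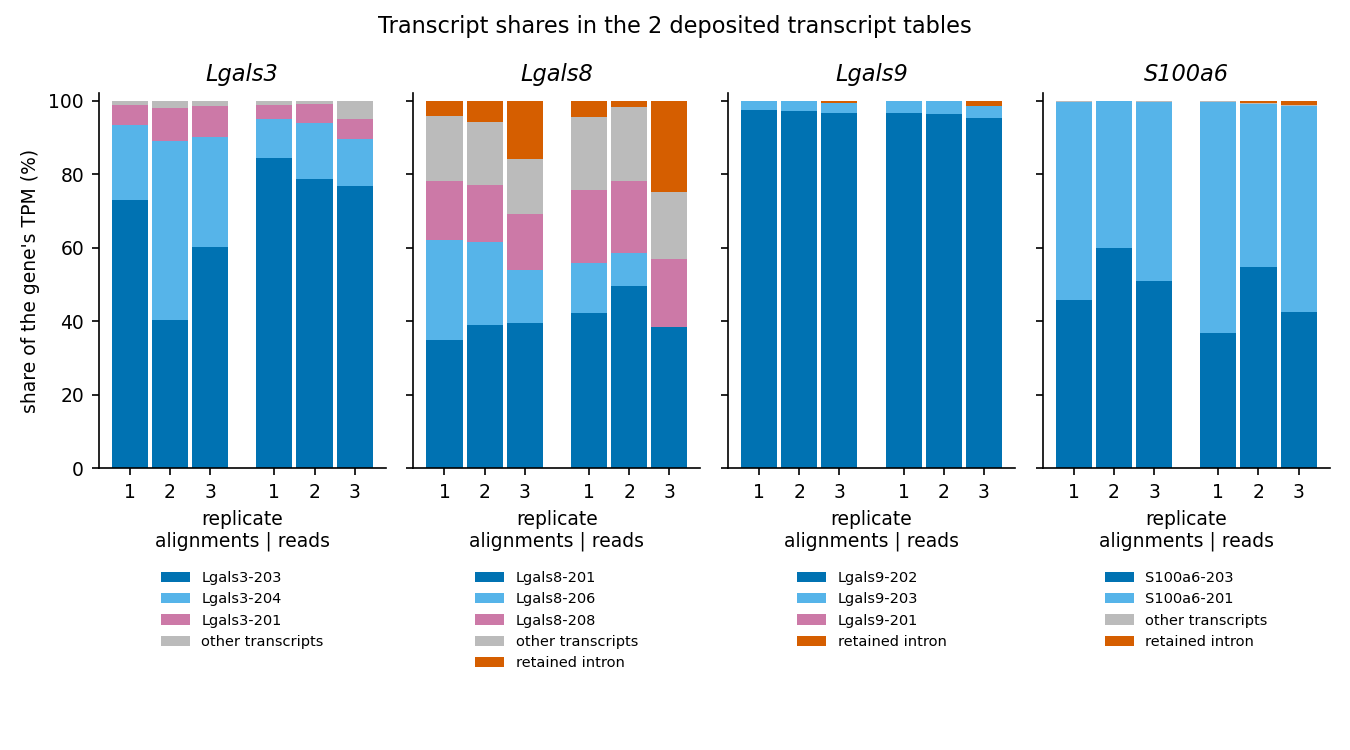
Share of each gene's TPM by transcript, in percent, for Lgals3, Lgals8, Lgals9 and S100a6, with 3 bars for the table made from alignments and 3 for the table made from reads in each panel. Lgals9-202 fills nearly the whole bar in every library, and the retained-intron share of Lgals8 is largest in replicate 3 in both tables.

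Transcripts that keep an intron were rare among the members, and their sum was highest in replicate 3. The 7 annotated ones, in 5 members, summed to 2.04, 2.67 and 9.10 TPM, or 0.145, 0.169 and 0.691% of the members' TPM. Of them 5 were highest in replicate 3 by deposited TPM, as were 66.8% of all genes tested, and the other 2 were at 0 TPM in every library. Those 2 were not highest in replicate 3 in the read-derived table: S100a8-202 had 0.041, 0 and 0.019 TPM and S100a6-202 had 0, 0.105 and 0.065 TPM. Lgals8 held most of that sum, with retained-intron forms at 4.03, 5.72 and 15.9% of its TPM (8.57 ± 6.45, SD, n = 3) and 4.88% on average without replicate 3. The read-derived table gave 4.37, 1.75 and 24.9%. Malat1 and Neat1 were likewise highest in replicate 3, and the part of nuclear RNA in the Lgals8 share was not tested.

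The rest of both families was mostly silent. Of 11 other genes with S100 names 3 reached 1 TPM in every library, S100a1, S100a13 and S100pbp, which encodes a binding protein and no S100 protein, at 3.69 ± 0.580 TPM (SD, n = 3). Another 6 had 0 counts in every library (S100a3, S100a5, S100a14, S100a16, S100g and S100z), S100b averaged 0.040 TPM and S100a7a is given above. Of the other galectin genes Lgals2, Lgals7, Lgals12 and Grifin had 0 counts, Lgals4 averaged 0.090 TPM and the galectin-related gene Lgalsl 0.297 TPM. Lgals6 was not in the annotation used here. Lgals3bp, which encodes a secreted glycoprotein that galectin-3 binds, held 801, 659.9 and 823 TPM (762 ± 88.7, SD, n = 3), and its range overlapped with that of Lgals3. It was lowest in replicate 2, where Lgals3 was highest.

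Intracellular partners of the S100 proteins were well represented, while one of the receptors was nearly silent. Of 13 partner and receptor genes 12 were at 10 TPM or more in each library, and the median over the list was 35.1 TPM. Anxa2 led at 104.4 ± 4.61 TPM, followed by Bsg, a membrane glycoprotein described as a receptor of human S100A9, at 76.2 ± 8.62 and Anxa1 at 73.7 ± 5.05 TPM (SD, n = 3). Ager, which encodes the receptor RAGE, had 0, 1 and 14 counts and averaged 0.050 TPM. Between libraries 1 of the 12 tested differed, the scavenger receptor gene Cd36, at 19.8, 38.4 and 47.1 TPM, where 16.2% of all genes did.

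Ligands of galectins and the enzymes that build their sugars were also present. Of 14 ligands and partners 11 were at 1 TPM or more in each library, the median over the list was 67.8 TPM, and the highest were the lysosomal membrane glycoproteins Lamp1 at 623 ± 57.4 and Lamp2 at 168 ± 32.4 and the surface protein Cd47 at 162 ± 33.6 TPM (SD, n = 3). Havcr2, which encodes Tim-3, a partner described for galectin-9, held 6.35 ± 0.533 TPM (SD, n = 3). Calcoco2, whose human protein is drawn by galectin-8 to broken vacuoles, had 0 counts in every library. Of the 13 tested 1 differed between libraries, Spn, at 0.57, 1.01 and 0.83 TPM, where 16.2% of all genes did. All 12 glycan enzymes reached 1 TPM and 6 reached 10 TPM in every library, none of them differing between libraries by the rule above. B4galt1, which adds the galactose that galectins bind, led at 37.3 ± 5.39 TPM, followed by Mgat1 at 34.6 ± 8.59 and the polylactosamine enzyme B3gnt2 at 32.8 ± 5.21 TPM (SD, n = 3). Mgat5, which makes the branched N-glycans that galectin-3 prefers, held 9.16 ± 1.45 and St6gal1, whose α-linked sialic acid blocks binding of galectin-1, 2.62 ± 0.531 TPM (SD, n = 3).

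**Figure D5:**
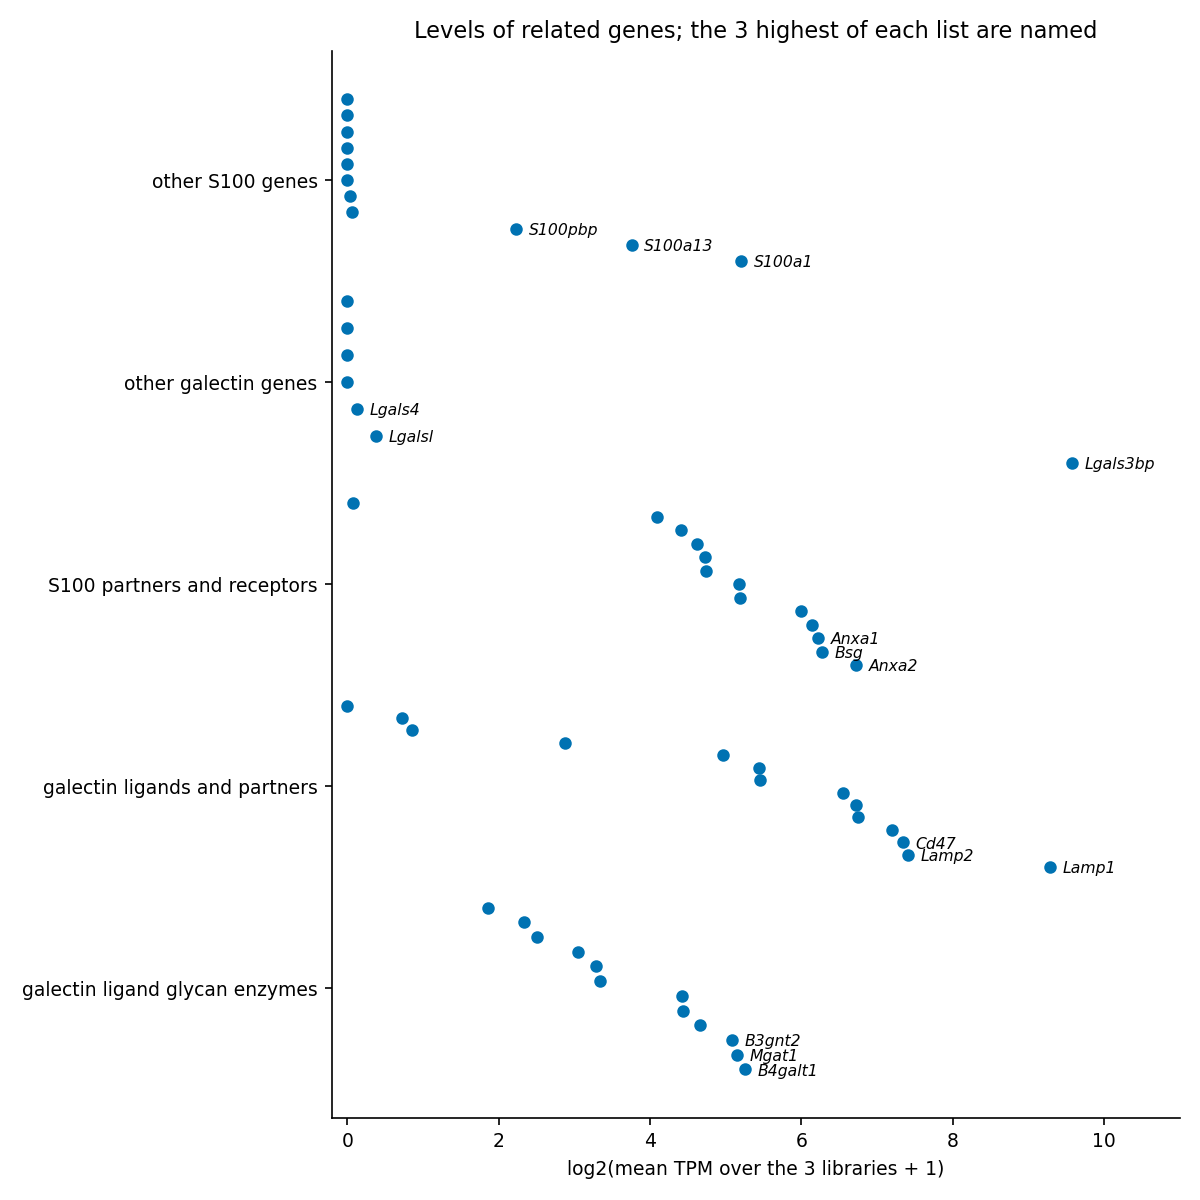
Mean level over the 3 libraries, as log2(TPM + 1), of every gene in the lists of other S100 genes, other galectin genes, S100 partners and receptors, galectin ligands and glycan enzymes, with the 3 highest of each list named. Lgals3bp and Lamp1 are the highest points, and most genes of both family lists lie at or near 0.

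For each member the protein-coding genes with the most similar values over the 3 libraries were found, by the smallest value of the largest difference in log2(TPM + 1) in any library. With 3 libraries this is a likeness of level and says nothing of shared control. Lgals8 had the closest, Txndc17 with a largest difference of 0.02 and Mbd2 with 0.04. For Lgals9 they were Cdc42 and Cybb, both at 0.09, and for S100a8 Rnf8 at 0.06 and Kctd17 at 0.07. S100a11 lay near Bcl2a1b at 0.10 and Pira2 at 0.13, S100a6 near Timm10b at 0.18 and Ndufa12 at 0.21, and S100a10 near Ndufa4 at 0.18 and Cyb5a at 0.24. S100a9 lay near Apex1 and Mmp12, both at 0.21, Lgals1 near Anpep at 0.20 and Gpx1 at 0.24, and S100a4 near Cdk18 at 0.23 and Mid1ip1 at 0.25. Lgals3, for which few genes are as abundant, lay near Rpl41 at 0.28 and Akr1a1 at 0.32.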

How the data were processed

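Cytosolic total RNA was sequenced in 3 libraries of 1 group, numbered by the labels. Per the deposited README, the gene table and a transcript table were made from mm10 alignments with annotation M21, and another transcript table from the reads. No source used here names the aligner or the quantifier. Expected counts, as deposited, estimate the reads of a gene or transcript and split shared reads, so near-identical copies are uncertain. The read-derived table holds estimated counts and TPM. The deposited TPM and FPKM are relative to length and library total, by the authors, per the file headers, as are the deposited TPM interval bounds.

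Rows naming no gene (26345, with 0.418, 0.248 and 0.165% of counts) were left out. Counts were rounded, then scaled by TMM in edgeR 4.0.16 under R 4.3.3. The chi-square test took genes with a mean of 10 or more counts and added 0.5 counts for ratios. It was also run on simulated counts with counting error alone, which cannot show how it behaves with other spread between libraries. Other steps ran in Python 3.11.15 with pandas 2.3.3, numpy 2.4.6, matplotlib 3.10.9 and scipy 1.17.1. Rescaled TPM gives protein-coding genes the same total in each library. Intervals and limits cover counting error only, a count of 0 allowing 3 counts.

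Named genes are all members, every gene of both family lists, the 3 highest of each other list (1 of them is not reported here), and the 2 nearest genes of each member. Malat1, Neat1, Ager, Cd36, Havcr2, Calcoco2, Spn, Mgat5, St6gal1, Ly6g, Retnlg, Elane, Mpo, Ngp, Prtn3, Ltf, Camp, Mmp9, Cxcr2, F13a1, Pdgfra, Heatr1, Gm42674, S100a2 and the pseudogenes were named outside that rule after their values were seen. Members and lists were chosen with earlier results of these data known. Of 127 distinct listed symbols 1 was not in the annotation. Alternatives were rescaled and read-derived TPM, FPKM, DESeq2 1.42.0 size factors, other thresholds and each replicate left out. The shares of Lgals3 transcripts and of Lgals8 retained introns, the length classes and the split of the neutrophil list were added after seeing the data.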

Additional observations from a re-analysis of the deposited data

How the results depend on the processing

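The levels moved with the scale. With TPM rescaled to protein-coding genes the S100 and galectin sums averaged 562 and 4274, with read-derived TPM 64.5 and 508, and with FPKM 279 and 2116. Read-derived TPM gave mean shares of 96.2% for Lgals9-202, 43.4% for Lgals8-201 and 80.0% for Lgals3-203. Between libraries 4034 genes were called at a mean of 1 count or more, 3704 at a ratio of 1.5 and 937 among protein-coding genes only, against 2203. Leaving out a replicate gave 608 to 2034 genes, the lowest without replicate 3. For members the ratio of 1.5 gave 7 calls, where 27.2% of genes were called, and leaving out a replicate gave 0 to 2. DESeq2 size factors called 2207 genes and the same 2 members. Of alternatives to the sums, ratios, shares and counts, 47 stayed within 1 SD between libraries (for counts, within 1.5 times) and 16 did not. For single levels 30 stayed, all of them with a replicate left out, and 20 changes of scale did not. Leaving out 1 of 3 libraries cannot move a mean by 1 SD. Those alternatives to sums, ratios, shares and levels therefore had to stay, and their number shows no stability. The leading form of S100a6 changed with the table. The Lgals8 retained-intron share, whose SD is wide, was 4.88% without replicate 3 and 10.4% in the read-derived table, against 8.57%. S100a8 fell under 1 TPM in the read-derived table, where 9 members reached it, and 8 members reached 5 TPM. Neighbouring pairs without overlap numbered 4 in the read-derived table and 5 to 7 with a replicate left out. The causes were not tested. No paired analysis was possible because there is 1 group. Depth limits S100a8 and S100a9 most, with 24 and 33 counts in replicate 1.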
